A study of Mus musculus with 54 samples.

Results

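Thioglycolate-elicited peritoneal macrophages of C57BL/6 mice were compared after 24 h of culture with IL-4 (M2-like macrophages) and without stimulus (M0 macrophages). The comparison takes every library that the labels assign to these conditions in the polarization experiment, which is 12 of the 54 libraries of the series. Each of 3 mice, numbered 1 to 3 in the labels, gave M0 and M2-like macrophages, and each mouse and condition was sequenced as 2 technical libraries, whose read counts were summed, so that 3 M2-like samples were set against 3 M0 samples of the same mice. Per the study's methods, mice of 8 to 20 weeks had been injected with thioglycolate medium 4 days before lavage, the adherent cells were kept, and IL-4 was given at 10 ng/ml in culture medium. How the M0 cells were kept meanwhile is not stated beyond the absence of a stimulus in the labels. No sort or depletion is described, so the samples are adherent exudate cells of a sterile inflammation and not purified resident macrophages. M1-like samples (LPS and IFNγ) of the same mice entered the model to share the estimate of the spread and took part in the filter on low counts.

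IL-4 binds a receptor made of IL-4Rα and the common γ chain, and Jak kinases at the receptor phosphorylate STAT6, which moves to the nucleus and binds DNA at a palindrome of TTC and GAA. In mouse macrophages this pathway is known for turning on Arg1, Retnla, Chil3 and the mannose receptor, for raising arginine and fatty acid use and for promoting the fusion of macrophages into giant cells. Such alternatively activated macrophages are found in helminth infection and in tissue repair.

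Of 16110 genes with enough counts for a test, 4410 (27.4%) changed with an adjusted p below 0.05, of which 2086 (12.9%) were higher and 2324 (14.4%) lower in M2-like macrophages. Most changes were small, since 2604 of these genes (59.0%) lay within 0.5 of no change on the log2 scale, while 293 genes (1.82%) rose and 285 genes (1.77%) fell by a log2 fold change of at least 1. Large changes were mostly increases, with 54 genes higher and 7 lower by 3 or more on the log2 scale. Of the 4410 genes, 4400 moved in the same direction in each of the 3 mice, and the share over all genes tested is not given here. The M2-like and M0 samples of 4297 of the 4410 genes did not overlap, where 45.4% of all genes tested showed no overlap. Both counts come from the samples by which the genes were called, so they are no independent evidence. The median log2 fold change of all genes tested was -0.00094.

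The summed samples held 39577911 to 50598499 counted reads, and the M2-like sample of mouse 1 stood apart from the other 5. In it, Gm42418, Gm15564 and Lars2, which hold reads of ribosomal RNA repeats, took 1.71% of the counts, against 0.547% in the M0 sample of mouse 1 and 0.0335% to 0.0745% in the 4 others. Deviations by GC content were taken on the log2 scale from the mean of the 9 samples of the model. They cover genes with a mean log2 CPM (counts per 1000000 counted reads) above 2. In the M2-like sample of mouse 1, the median deviation was 0.22 for the 25% of genes with the lowest GC content. For the 25% with the highest GC content it was -0.27. The M0 sample of mouse 1 lay at -0.13 and 0.09 and the 4 others within 0.07 of 0. The part of these differences in the results was not tested. Without mouse 1, 2555 genes were higher and 2592 lower, and 3912 of the 4410 genes were called again, all in the same direction. Without mouse 2, the counts fell to 784 and 917, and without mouse 3 to 1616 and 1847. No called gene changed its direction in any of these fits. Counts of list members without 1 mouse, given below, stand against these totals. The other list counts stand against the 12.9% of all genes called higher and the 14.4% called lower.

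**Figure D1:**
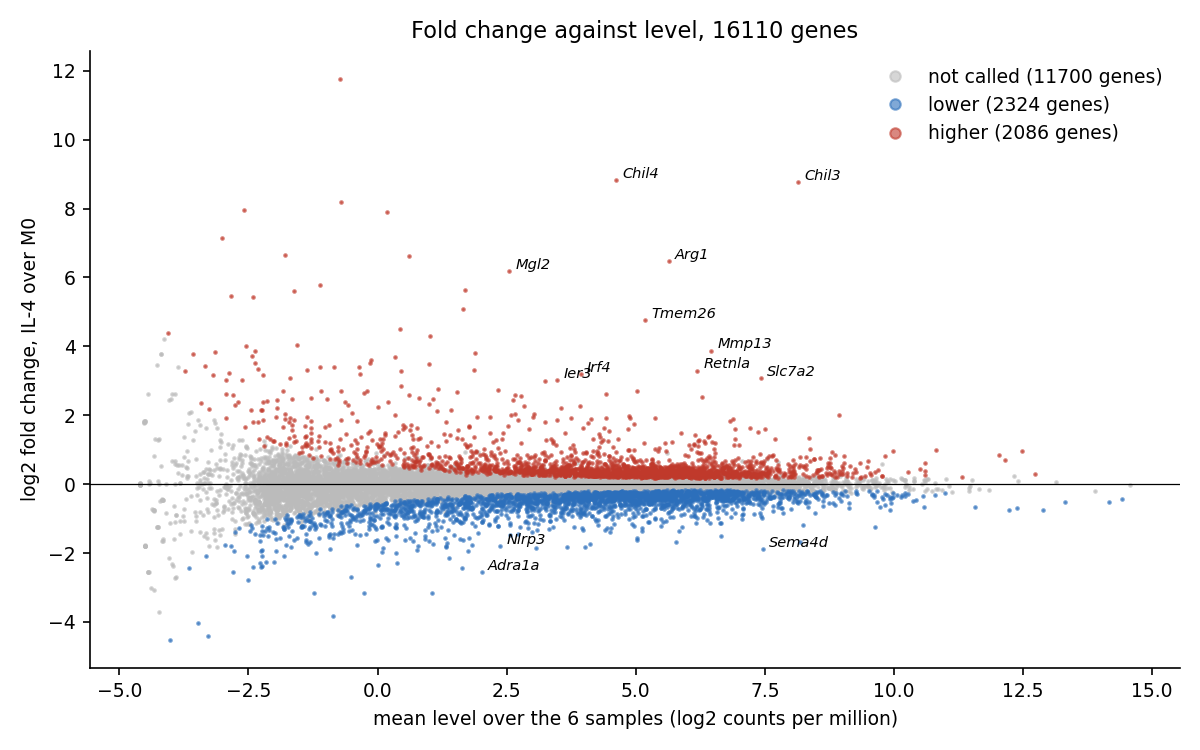
Log2 fold change (M2-like against M0 macrophages, y axis) of the 16110 genes tested against their mean level (log2 CPM over the 6 samples, x axis), with the 2086 genes called higher and the 2324 called lower in color and the other 11700 in grey. The highest points lie near a log2 fold change of 8 to 12, and few points lie below -4.

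Expression is given as counts per 1000000 counted reads (CPM) with TMM-normalized library sizes, log2 fold changes as M2-like against M0 with their standard error (SE), and adjusted p-values are those of the edgeR test with the mouse number as a block. Values of single samples are listed in the order of mice 1, 2 and 3.

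Among genes with a mean log2 CPM of at least 2, the strongest increases were in the chitinase-like genes Chil3 and Chil4, which code for the secreted lectins Ym1 and Ym2. Chil3 (ENSMUSG00000040809, chr3:106147554-106167564, minus strand) was measured at 12.2, 11.5 and 17.8 CPM in M0 and at 6508, 5078 and 6194 CPM in M2-like macrophages (log2 fold change 8.77 ± 0.17 SE, adjusted p = 1.6e-10), a 437-fold difference. Chil4 (ENSMUSG00000063779, chr3:106201490-106219507, minus strand) was at 0.9605, 0.988 and 1.47 CPM in M0 and at 552, 459 and 551 CPM in M2-like macrophages (log2 fold change 8.84 ± 0.14 SE, adjusted p = 7.3e-11). All 3 M2-like samples lay far above the M0 samples in both genes. Because both genes are close copies of each other, reads could have been assigned to the wrong copy, so that the value of each copy is uncertain. In the paired-read set described below, Chil4 reached 0.251 CPM at most. Scaled by gene length, Chil3 moved from rank 5112 of 15879 genes in M0 to rank 6 in M2-like macrophages, where its level (10709 ± 1218, SD, n = 3, on a length-scaled measure that sums to 1000000 in each sample) was next to that of the galectin Lgals3 (12119 ± 1215) and of mt-Co1 (10678 ± 799).

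The promoters of both genes carry the same stretch with a palindrome of the STAT family. They are shown with those of Retnla and Tmem26, which are among the 10 largest increases as well, and of the marker gene Pdcd1lg2, all chosen because they hold a match, as RefSeq sequence of the 250 bases before the RefSeq start of the gene (GRCm38.p6), 5′ to 3′ on the strand of the gene, ending earlier where the GENCODE gene starts further upstream. Capitals mark the STAT6 motif, TTC and GAA with any 4 bases between them, in Retnla, Tmem26 and Pdcd1lg2, and the form with 3 bases between them, TTCNNNGAA, in Chil3 and Chil4. Both motifs are palindromes, so a match counts on both strands, and neither can overlap the other at the same TTC. The windows are chr3:106167565-106167814 (minus strand) for Chil3, chr3:106219508-106219729 (minus strand) for Chil4, chr16:48842359-48842550 (plus strand) for Retnla, chr10:68723496-68723645 (plus strand) for Tmem26 and chr19:29410669-29410918 (plus strand) for Pdcd1lg2.
Chil3: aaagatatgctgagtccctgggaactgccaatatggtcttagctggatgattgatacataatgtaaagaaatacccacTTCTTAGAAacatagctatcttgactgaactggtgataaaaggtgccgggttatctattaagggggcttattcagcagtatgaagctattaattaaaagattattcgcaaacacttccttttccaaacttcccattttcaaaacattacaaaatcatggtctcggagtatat
Chil4: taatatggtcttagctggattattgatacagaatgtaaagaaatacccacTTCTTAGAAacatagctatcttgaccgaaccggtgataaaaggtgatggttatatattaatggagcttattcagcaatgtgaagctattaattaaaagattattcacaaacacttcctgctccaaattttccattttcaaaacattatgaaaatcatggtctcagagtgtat
Retnla: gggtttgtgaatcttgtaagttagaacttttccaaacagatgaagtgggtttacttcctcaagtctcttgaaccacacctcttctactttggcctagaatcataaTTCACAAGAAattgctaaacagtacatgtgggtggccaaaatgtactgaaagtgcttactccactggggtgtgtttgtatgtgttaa
Tmem26: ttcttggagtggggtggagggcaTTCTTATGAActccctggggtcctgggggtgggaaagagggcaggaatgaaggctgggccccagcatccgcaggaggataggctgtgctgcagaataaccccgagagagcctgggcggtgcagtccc
Pdcd1lg2: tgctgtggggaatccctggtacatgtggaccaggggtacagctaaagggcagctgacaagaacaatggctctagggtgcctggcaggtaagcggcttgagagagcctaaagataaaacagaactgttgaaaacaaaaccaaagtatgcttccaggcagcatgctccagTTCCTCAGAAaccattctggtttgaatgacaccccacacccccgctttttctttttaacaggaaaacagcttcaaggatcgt
The motif began 172 bases before the start in Chil3 and 200 bases before it in Chil4, inside a run of 44 identical bases that the windows share. In Retnla it began 145, in Pdcd1lg2 82, and in Tmem26 227 bases before the RefSeq start, with another match 41 bases before it that lies inside the GENCODE gene and is not shown. Of the 10 largest increases, 8 had a promoter in the RefSeq table, 2 of these held the motif with 4 bases and 2 held TTCNNNGAA, while those of Mgl2, Mmp13, Irf4 and Ier3 held neither. The promoter of Socs1, an inhibitor that rose as well, held neither. In windows of the same kind (300 bases, 50 of them past the start), 2284 of 32851 promoters (6.95%) held the motif with 4 bases and 2726 (8.3%) held TTCNNNGAA. A match describes these letters and is no evidence of a bound site.

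**Figure D2:**
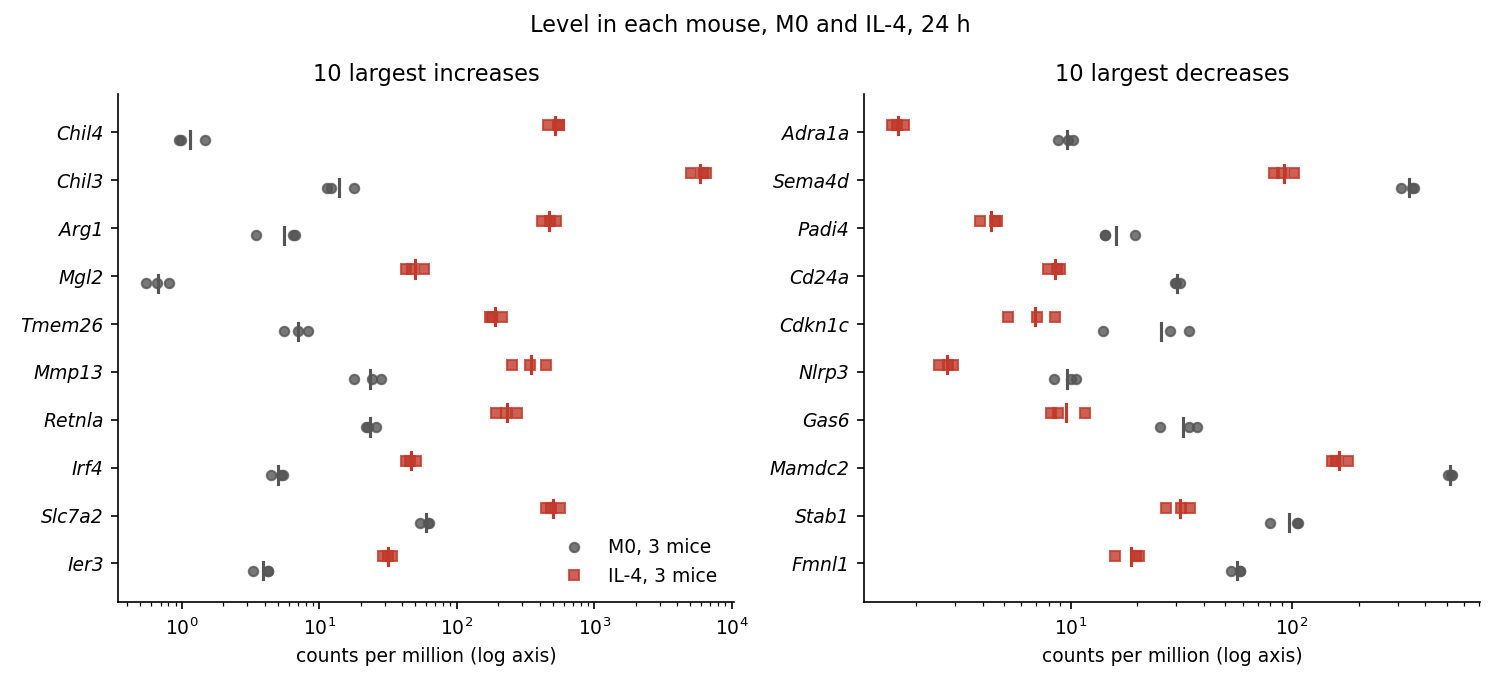
Expression (CPM, log axis) of the 10 genes with the largest increase and the 10 with the largest decrease (mean log2 CPM of at least 2) in each of the 3 M0 and 3 M2-like samples, with 1 point per mouse and bars at the group means. Only genes without overlap of the groups were eligible, so in each of the 20 genes the M2-like points lie on 1 side of all M0 points. The genes run from Chil4 (about 1 to about 500 CPM) at the top to Fmnl1 (about 57 to about 19 CPM).

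Arginine handling changed at its entry and first step. Arg1 (ENSMUSG00000019987, chr10:24915221-24927484, minus strand), the arginase that splits arginine into ornithine and urea, was at 6.48, 3.45 and 6.62 CPM in M0 and at 524, 414 and 474 CPM in M2-like macrophages (log2 fold change 6.47 ± 0.29 SE, adjusted p = 1.2e-07). Slc7a2 (ENSMUSG00000031596, chr8:40862396-40922308, plus strand), a cationic amino acid transporter that imports arginine, was already present in M0 macrophages at 62.4, 54.3 and 61.5 CPM and reached 566, 449 and 484 CPM with IL-4 (log2 fold change 3.07 ± 0.07 SE, adjusted p = 7.1e-10). Neither gene's groups came near each other. Of the 21 tested members of the arginine and polyamine list, 7 rose (33.3%, against 12.9% of all genes tested) and 3 fell (14.3%, against 14.4%), with a median of 0.16. Besides Arg1 and Slc7a2, the increases were modest and covered the steps toward polyamines and proline, in Slc7a1 (0.48 ± 0.06), Amd1 (0.46 ± 0.09), Srm (0.42 ± 0.10), Odc1 (0.37 ± 0.08) and Aldh18a1 (0.34 ± 0.07). Of the decreases, whose share was that of all genes, the spermine oxidase Smox had the largest (-0.65 ± 0.15). Nos2, which uses the same substrate for nitric oxide, stood near 1 CPM in both groups (0.15 ± 0.22 (adjusted p = 0.65)). Without mouse 2, 4 members rose and 1 fell.

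Mgl2 (ENSMUSG00000040950, chr11:70130329-70137550, plus strand), which codes for a galactose-binding C-type lectin, was at 0.6603, 0.802 and 0.551 CPM in M0 and at 58.2, 47.4 and 42.5 CPM in M2-like macrophages (log2 fold change 6.19 ± 0.12 SE, adjusted p = 1.6e-10). Its neighbor in sequence, Clec10a, rose less (1.87 ± 0.13), and reads of this close pair could have been exchanged. Retnla (ENSMUSG00000061100, chr16:48842551-48844461, plus strand), coding for the secreted protein Fizz1, was at 25.7, 22.5 and 21.98 CPM in M0 and at 276, 226 and 192 CPM in M2-like macrophages (log2 fold change 3.298 ± 0.12 SE, adjusted p = 1.7e-08). All M2-like samples lay above all M0 samples in these genes, the nearest pair being several-fold apart.

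Tmem26 (ENSMUSG00000060044, chr10:68723646-68782650, plus strand), a membrane protein of little known function, rose from 5.58, 7.01 and 8.25 CPM to 214, 179 and 175 CPM (log2 fold change 4.77 ± 0.15 SE, adjusted p = 6.8e-09). Mmp13 (ENSMUSG00000050578, chr9:7272514-7283331, plus strand), a collagenase, rose from 24.2, 17.9 and 28.1 CPM to 448, 252 and 339 CPM (log2 fold change 3.88 ± 0.12 SE, adjusted p = 6.8e-09), with the highest value in mouse 1. Ier3 (ENSMUSG00000003541, chr17:35821684-35822923, plus strand), an early response gene, rose from 4.24, 3.28 and 4.25 CPM to 29.01, 31.8 and 34.1 CPM (log2 fold change 3.02 ± 0.13 SE, adjusted p = 7.0e-08). The groups of all 3 genes were separated, as the choice of these genes required.

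The list of 36 alternative activation markers moved almost as a whole. Of 34 tested members 30 rose and 2 fell, with a median log2 fold change of 2.21, and 21 members rose by a log2 fold change of at least 1. The list was drawn up from genes known to follow IL-4, with earlier results of these data known, so its direction is no independent evidence. All 30 increases were called again when any 1 of the 3 mice was left out. The decreases were Il1rn (-0.47 ± 0.08), which codes for the IL-1 receptor antagonist, and Cd83 (-0.36 ± 0.08), and Cd83 lost its call without mouse 2, without mouse 3 and without the block on mouse number.

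Among the members with low M0 levels, Rnase2a, an eosinophil-type ribonuclease of a family with close copies, had no count in the 3 M0 samples and 1394 counts in the M2-like samples, which made it at least 474-fold higher (against 3 counts over the M0 group). Ccl17 had 2 counts in M0 and 101 in M2-like samples, a ratio of 51.5 with an exact 95% interval of 13.9 to 431, which covers counting error only. Pdcd1lg2, coding for the inhibitory ligand PD-L2, rose from 0.5202, 0.392 and 0.404 CPM to 25.7, 22.02 and 18.5 CPM (log2 fold change 5.64 ± 0.11 SE, adjusted p = 1.6e-10). None of these genes reached 1 CPM in any M0 sample.

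Markers with a high M0 level rose by smaller factors. Mrc1, the mannose receptor, rose from 105, 101 and 106 CPM to 346, 295 and 309 CPM (log2 fold change 1.602 ± 0.09 SE, adjusted p = 4.6e-07), and the fibronectin gene Fn1 from 1284, 1232 and 1324 CPM to 2557, 2546 and 2459.7 CPM (log2 fold change 0.98 ± 0.13 SE, adjusted p = 2.6e-04). Neither pair of groups overlapped. Ptgs1 (2.700 ± 0.08), Cdh1 (5.09 ± 0.17), Flt1 (3.82 ± 0.14) and Ch25h (3.41 ± 0.25) rose from levels under 20 CPM. Egr2 (0.68 ± 0.07) and Clec7a (0.69 ± 0.08) were above 100 CPM in each M0 sample and rose by less. Alox15, a 12/15-lipoxygenase often listed with these genes, was below 3 CPM in every sample and was not called (-0.43 ± 0.26 (adjusted p = 0.24)), and neither was the hemoglobin receptor Cd163 (-0.07 ± 0.17 (adjusted p = 0.78)).

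**Figure D3:**
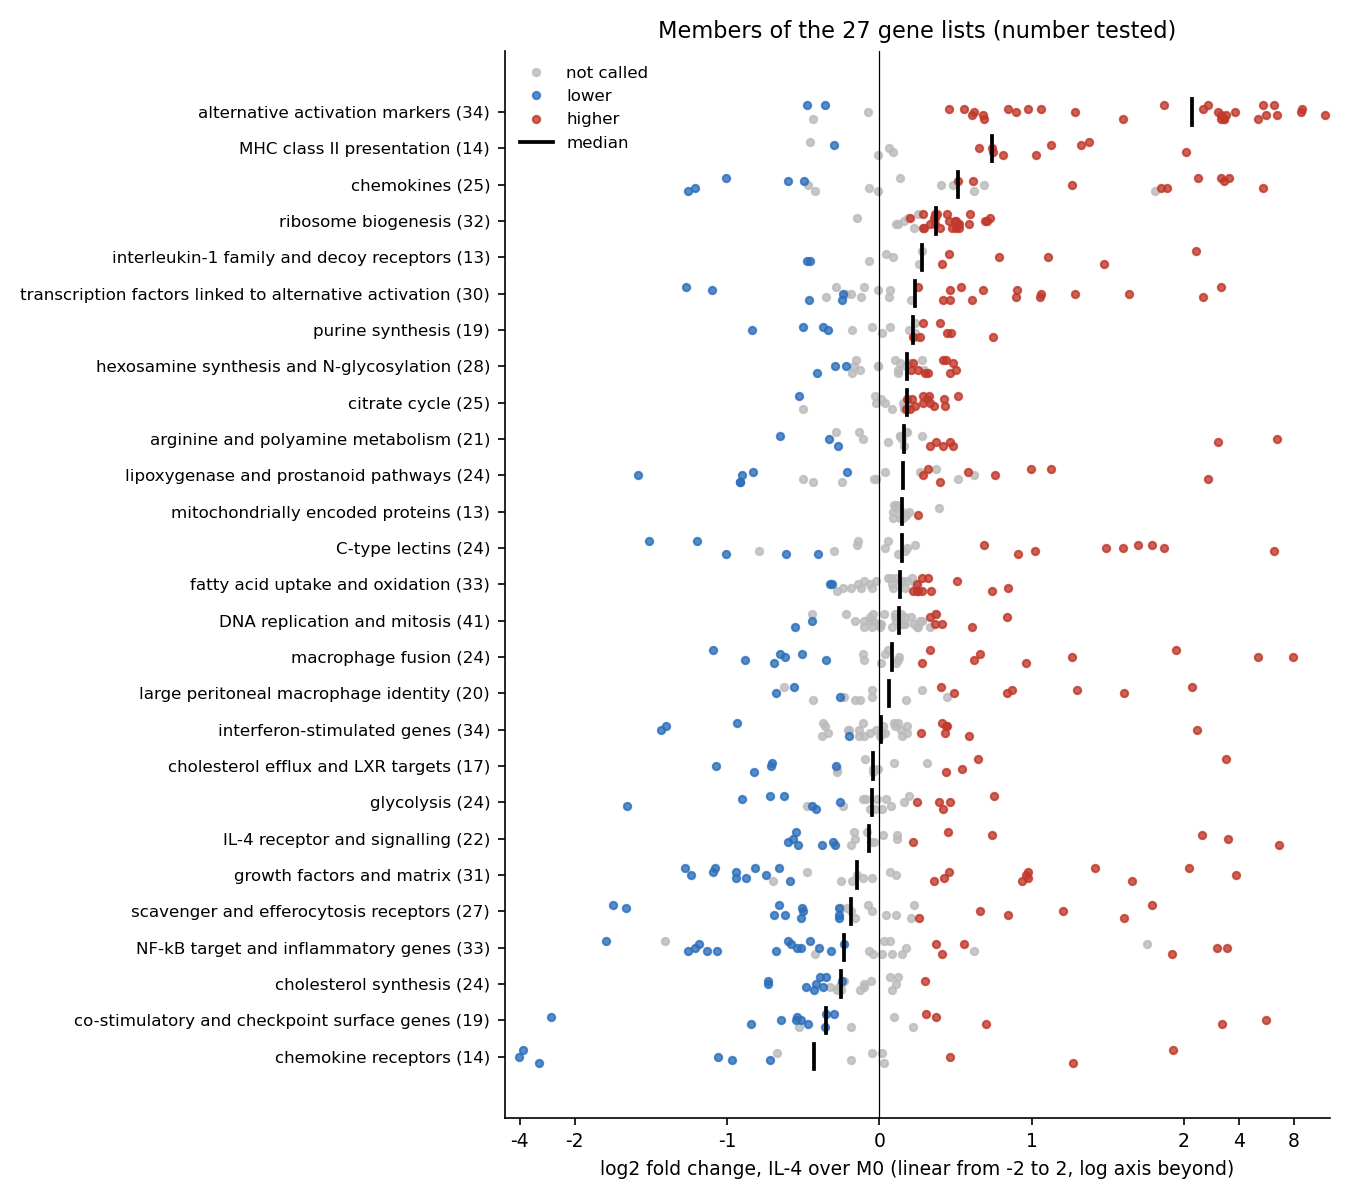
Log2 fold changes (M2-like against M0, x axis, linear between -2 and 2 and logarithmic beyond) of the tested members of the 27 gene lists (y axis), with called members in color and a bar at the median of each list. The alternative activation markers (median 2.21) and MHC class II genes (0.74) lie to the right of 0, the chemokine receptors (-0.43) and co-stimulatory genes (-0.35) to the left, and most other medians lie within 0.3 of 0.

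In the signalling chain itself, the largest increases were in feedback inhibitors. Cish, which binds activated cytokine receptors and blocks further signalling, rose from 0.1601, 0.131 and 0.1103 CPM to 12.9, 13.1 and 14.3 CPM (log2 fold change 6.64 ± 0.18 SE, adjusted p = 2.4e-09), the largest increase of the list. The same family's Socs1 (3.499 ± 0.15 (adjusted p = 7.6e-08)) and Socs2 (2.51 ± 0.23 (adjusted p = 2.5e-05)) rose as well, while Socs3 was not called (-0.08 ± 0.11 (adjusted p = 0.64)). Jak2 (0.74 ± 0.09) and the phosphatase gene Ptpn2 (0.45 ± 0.09) were higher. The receptor genes Il4ra (-0.17 ± 0.08 (adjusted p = 0.13)) and Il2rg (0.12 ± 0.07 (adjusted p = 0.23)) were not called, and Il13ra1, the partner of IL-4Rα in the type II receptor, fell (-0.56 ± 0.08 (adjusted p = 3.7e-04)). The adaptor Irs2 fell the most (-0.60 ± 0.17 (adjusted p = 0.021)), followed by Il13ra1, Jak3 (-0.54 ± 0.14) and the phosphatase gene Ptpn6 (-0.54 ± 0.07). In all, 6 members rose and 7 fell of 22 tested (27.3% and 31.8%, against 12.9% and 14.4% of all genes, median -0.07), and 3 fell without mouse 2.

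Among 30 transcription factors linked to alternative activation 15 rose and 5 fell (median 0.23). Irf4 (ENSMUSG00000021356, chr13:30749226-30766976, plus strand), which is needed for many IL-4 target genes in macrophages, rose from 5.26, 5.41 and 4.47 CPM to 50.3, 45.6 and 42.6 CPM (log2 fold change 3.19 ± 0.08 SE, adjusted p = 1.6e-09), the largest increase of the list. Batf3 (2.56 ± 0.15), Nfil3 (1.64 ± 0.10), Klf4 (1.28 ± 0.10) and the coactivator Ppargc1b (1.06 ± 0.10) rose by a log2 fold change of at least 1. Nr4a1 fell the most (-1.27 ± 0.23 (adjusted p = 0.0022)), from a level near 2 CPM, and Maf, a factor of resident macrophages, fell from 56.7, 60.96 and 51.4 CPM to 27.8, 27.7 and 23.5 CPM (log2 fold change -1.099 ± 0.11 SE, adjusted p = 5.0e-05). The Maf values of all M2-like samples lay below those of all M0 samples. Without mouse 2, 3 members fell.

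The study targeted 4 factors with siRNA in M2-like macrophages. At 24 h Myc and Pparg were called higher, while E2f1 and Stat6 were not called. Myc was at 9.52, 8.93 and 9.03 CPM in M0 and at 18.7, 18.6 and 19.98 CPM in M2-like macrophages (log2 fold change 1.06 ± 0.09 SE, adjusted p = 1.2e-05). Pparg was at 67.1, 68.2 and 68.2 CPM in M0 and at 132, 128 and 119.6 CPM in M2-like macrophages (log2 fold change 0.90 ± 0.07 SE, adjusted p = 6.4e-06). Both genes were called in every alternative. E2f1 was at 15.4, 15.3 and 15.5 CPM against 11.6, 14.1 and 14.1 CPM (log2 fold change -0.22 ± 0.09 SE, adjusted p = 0.087) and Stat6 at 252, 254 and 251 CPM against 206, 227 and 231 CPM (log2 fold change -0.19 ± 0.07 SE, adjusted p = 0.078), so that all M2-like values lay below all M0 values without passing the test, and 1 of 11 alternatives called each of them lower. The M2-like value of mouse 1 was the lowest in both genes.

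Genes of macrophage fusion moved in both directions, 9 up and 7 down of 24 tested (37.5% and 29.2%, against 12.9% and 14.4% of all genes, median 0.08). Ocstamp, coding for a membrane protein required for the formation of multinucleated cells, rose from 0.02001, 0.0373 and 0.1103 CPM to 13.3, 15.02 and 14.6 CPM (log2 fold change 7.91 ± 0.22 SE, adjusted p = 2.7e-09), the largest increase. Its partner Dcstamp rose from 4.802, 4.29 and 3.24 CPM to 18.5, 15.4 and 13.5 CPM (log2 fold change 1.95 ± 0.09 SE, adjusted p = 1.5e-07). All M2-like samples lay above the M0 samples for both. Cdh1, coding for E-cadherin, rose from 0.5803, 0.317 and 0.698 CPM to 19.7, 16.4 and 18.3 CPM (log2 fold change 5.09 ± 0.17 SE, adjusted p = 1.5e-07). Mmp14 (-1.09 ± 0.07) had the largest decrease, and Trem2 (-0.62 ± 0.09), Tyrobp (-0.65 ± 0.10) and Rac2 (-0.69 ± 0.08) fell, although their products take part in fusion as well.

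The decreases were smaller than the increases. Adra1a (ENSMUSG00000045875, chr14:66635251-66771168, plus strand), an α1 adrenergic receptor, had the largest decrease among genes of sufficient level, from 9.78, 10.2 and 8.77 CPM in M0 to 1.64, 1.77 and 1.56 CPM in M2-like macrophages (log2 fold change -2.54 ± 0.17 SE, adjusted p = 2.0e-06). Sema4d (ENSMUSG00000021451, chr13:51685529-51793747, minus strand), a membrane semaphorin, fell from 350.5, 355 and 309.9 CPM to 83.1, 103 and 90.1 CPM (log2 fold change -1.89 ± 0.10 SE, adjusted p = 4.9e-07). In both genes the highest M2-like value lay far below the lowest M0 value. Padi4 (ENSMUSG00000025330, chr4:140745865-140774236, minus strand), which citrullinates histones, fell from 19.5, 14.2 and 14.3 CPM to 4.63, 4.58 and 3.899 CPM (log2 fold change -1.86 ± 0.13 SE, adjusted p = 3.1e-06), Cd24a (ENSMUSG00000047139, chr10:43578284-43584265, plus strand), a glycosylated surface protein, from 29.7, 31.3 and 29.998 CPM to 8.91, 8.68 and 7.92 CPM (log2 fold change -1.84 ± 0.11 SE, adjusted p = 7.4e-07).

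Cdkn1c (ENSMUSG00000037664, chr7:143458339-143461050, minus strand), an inhibitor of the cell cycle, varied among the mice but fell in each, from 34.4, 28.2 and 13.95 CPM to 7.09, 8.46 and 5.24 CPM (log2 fold change -1.82 ± 0.17 SE, adjusted p = 2.5e-05). Gas6 (ENSMUSG00000031451, chr8:13465374-13494490, minus strand), the bridge between dying cells and the receptors Axl and Mertk, fell from 37.3, 34.4 and 25.3 CPM to 8.15, 11.7 and 8.79 CPM (log2 fold change -1.75 ± 0.13 SE, adjusted p = 4.7e-06). Stab1 (ENSMUSG00000042286, chr14:31139013-31168641, minus strand), a scavenger receptor that is often named as a marker of alternative activation, fell from 107, 106 and 79.6 CPM to 27.1, 31.6 and 34.5 CPM (log2 fold change -1.67 ± 0.18 SE, adjusted p = 6.0e-05). The highest M2-like value lay below the lowest M0 value in each of these genes, as their choice required. The other 2 of the 10 largest decreases besides the inflammasome gene Nlrp3 were Mamdc2 (ENSMUSG00000033207, chr19:23302609-23448442, minus strand; -1.67 ± 0.06 (adjusted p = 3.1e-08)) and the formin Fmnl1 (ENSMUSG00000055805, chr11:103171107-103198901, plus strand; -1.61 ± 0.15 (adjusted p = 2.2e-05)). All 20 genes were called in each of the 11 alternatives.

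Metabolic genes changed by small factors, often in several members of a pathway. In the citrate cycle 14 of 25 genes rose and 1 fell (56.0% and 4.0%, against 12.9% and 14.4% of all genes, median 0.18). Idh3a (0.52 ± 0.08 (adjusted p = 5.6e-04)) and the fumarase gene Fh1 (0.43 ± 0.07 (adjusted p = 0.0012)) were at the top and Suclg2 (-0.53 ± 0.13 (adjusted p = 0.014)) was the decrease. Idh3a was at 33.7, 34.5 and 34.7 CPM in M0 and at 54.4, 46.3 and 47.2 CPM in M2-like macrophages, without overlap. No member reached a log2 fold change of 1. The list had 4 increases without mouse 2, 8 without mouse 3 and 17 without mouse 1, where all genes tested had 784, 1616 and 2555 instead of 2086, and the decrease was lost without mouse 2. Acod1, which makes itaconate, did not pass the test (-0.02 ± 0.11 (adjusted p = 0.91)).

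In fatty acid uptake and oxidation 11 of 33 genes rose and 2 fell (33.3% and 6.06%, against 12.9% and 14.4% of all genes, median 0.13). The fatty acid translocase Cd36 had the largest increase, from 3257, 2980.5 and 3199.5 CPM to 6894, 5054 and 5181 CPM (log2 fold change 0.85 ± 0.08 SE, adjusted p = 2.9e-05), and by gene length it moved from rank 40 to rank 22 of 15879 genes. Cd36 values did not overlap between the groups. Subunits of the trifunctional protein, Hadha (0.28 ± 0.06) and Hadhb (0.34 ± 0.07), and of the electron transfer flavoprotein, Etfa (0.51 ± 0.08) and Etfb (0.32 ± 0.08), rose slightly, while the gatekeeper Cpt1a did not pass the test (-0.14 ± 0.07 (adjusted p = 0.15)). Slc27a6 (-0.33 ± 0.08) had the largest decrease, followed by the binding protein gene Fabp5 (-0.31 ± 0.07). Without mouse 2, 3 genes rose and both decreases were lost, without mouse 3, 5 rose and 1 fell, and without mouse 1, 14 rose.

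Genes of cholesterol synthesis were more often lower than higher. Of 24 synthesis genes 9 fell and 1, Dhcr7 (0.30 ± 0.08), rose, with a median of -0.25 and with medians of -0.23, -0.27 and -0.25 in the 3 mice. Tm7sf2 (-0.73 ± 0.14 (adjusted p = 0.0028)) fell the most, and the master regulator Srebf2 fell from 142, 132 and 126 CPM to 81.8, 101 and 104 CPM (log2 fold change -0.48 ± 0.10 SE, adjusted p = 0.0044). Its M2-like values all lay below its M0 values. Without mouse 1, 12 fell and 3 rose. Without mouse 2, 6 fell, and without mouse 3, 9 fell, and in both of these fits the increase of Dhcr7 was lost. With an offset for GC content, 14 fell and 3 rose.

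Among 17 efflux genes and targets of the sterol receptor LXR, 4 rose and 5 fell (23.5% and 29.4%, against 12.9% and 14.4% of all genes, median -0.04). Apoe, the main apolipoprotein of macrophages, fell from 7524, 6854 and 6259 CPM to 3414, 4523 and 4838 CPM (log2 fold change -0.70 ± 0.12 SE, adjusted p = 0.0014), and Apoc2 fell the most (-1.07 ± 0.12). The exporters Abca1 (0.44 ± 0.11) and Abcg1 (0.55 ± 0.07) rose, and Ch25h (3.41 ± 0.25), which makes an oxysterol, had the largest increase from under 0.3 CPM in M0.

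Glycolysis genes were split, 5 up and 7 down of 24 (20.8% and 29.2%, against 12.9% and 14.4% of all genes, median -0.05). Ldha, which makes lactate, rose from 293, 282 and 299.6 CPM to 451, 503 and 520.1 CPM (log2 fold change 0.75 ± 0.09 SE, adjusted p = 1.1e-04), while the phosphofructokinase genes Pfkl (-0.90 ± 0.11 (adjusted p = 2.2e-04)) and Pfkm (-0.72 ± 0.12) fell and Pfkp (0.42 ± 0.10) rose. Aldoc had the largest decrease (-1.66 ± 0.17 (adjusted p = 6.2e-05)) from a low level. Without mouse 2, 1 gene rose, and with the GC offset 10 rose, among them Aldoa and Hk3, which were not called without it. The list median by mouse was -0.24 in mouse 1, 0.01 in mouse 2 and 0.08 in mouse 3.

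Lipid mediator genes changed at several branch points. Ptgs1, cyclooxygenase 1, rose from 13.2, 12.7 and 12.3 CPM to 84.4, 80.3 and 83.6 CPM (log2 fold change 2.700 ± 0.08 SE, adjusted p = 6.8e-09), while the inducible Ptgs2 did not pass the test (0.62 ± 0.24 (adjusted p = 0.079)). The prostacyclin receptor Ptgir (1.13 ± 0.07), the prostaglandin E2 receptor Ptger2 (0.996 ± 0.06) and the phospholipase gene Pla2g4a (0.76 ± 0.10) rose. Hpgd, which inactivates prostaglandins, fell the most (-1.59 ± 0.13 (adjusted p = 1.2e-05)), and Alox5ap (-0.90 ± 0.07), needed for leukotrienes, Hpgds (-0.83 ± 0.09) and Ptger4 (-0.92 ± 0.10) fell. Of 24 tested members 8 rose and 6 fell (median 0.15), and 5 rose without mouse 2.

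Genes of ribosome biogenesis rose in 25 of 32 tested members while the other 7 did not pass the test, with a median log2 fold change of 0.37 and with medians of 0.48, 0.39 and 0.37 in the 3 mice. Nop58, a core protein of box C/D small nucleolar particles, rose the most, from 23.5, 23.03 and 25.9 CPM to 44.1, 36.5 and 39.3 CPM (log2 fold change 0.73 ± 0.11 SE, adjusted p = 7.0e-04). Rrs1 (0.71 ± 0.07), Dkc1 (0.70 ± 0.10) and Wdr12 (0.60 ± 0.09) followed, and the nucleolin gene Ncl rose from 231, 228 and 245 CPM to 358, 278 and 282 CPM (log2 fold change 0.38 ± 0.09 SE, adjusted p = 0.0098). The M2-like samples lay above the M0 samples in Nop58 and in Ncl. Without mouse 2, 14 members rose, and without mouse 1, 29.

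Purine synthesis rose in 7 and fell in 4 of 19 genes (36.8% and 21.1%, against 12.9% and 14.4% of all genes, median 0.22). Prps1, which makes the precursor PRPP, had the largest increase (0.75 ± 0.10 (adjusted p = 2.8e-04)) and Adssl1 the largest decrease (-0.84 ± 0.13 (adjusted p = 8.4e-04)). Without mouse 2, 3 rose and 2 fell, and with the GC offset 11 rose. Of the 28 genes of hexosamine synthesis and N-glycosylation, 10 rose and 3 fell (35.7% and 10.7%, against 12.9% and 14.4% of all genes, median 0.18). The oligosaccharyltransferase genes Stt3b (0.50 ± 0.07 (adjusted p = 3.1e-04)) and Rpn1 (0.47 ± 0.06) and the entry enzyme Gfpt1 (0.44 ± 0.07) were among the increases. Alg1 (-0.41 ± 0.09 (adjusted p = 0.0071)) had the largest decrease. Without mouse 2, 4 rose and the decreases were lost, and without mouse 3, 6 rose. Genes of DNA replication and mitosis gave 6 increases and 2 decreases of 41 (14.6% higher, near the 12.9% of all genes), with Tpx2 at the top (0.84 ± 0.07 (adjusted p = 1.6e-05)) and E2f2 at the bottom (-0.55 ± 0.11 (adjusted p = 0.0042)), and the proliferation marker Mki67 did not pass the test (-0.06 ± 0.16 (adjusted p = 0.81)). Without mouse 2, 1 rose and 1 fell, and without mouse 3, 2 rose.

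The 13 mitochondrially encoded protein genes moved with mouse 1. Their median log2 fold change was 0.43 in mouse 1, 0.04 in mouse 2 and -0.03 in mouse 3, and 1 of them, mt-Nd1 (0.26 ± 0.09 (adjusted p = 0.045)), was called higher. Without mouse 1, or without mouse 2, its call was lost, and without mouse 3, 2 genes were called.

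**Figure D4:**
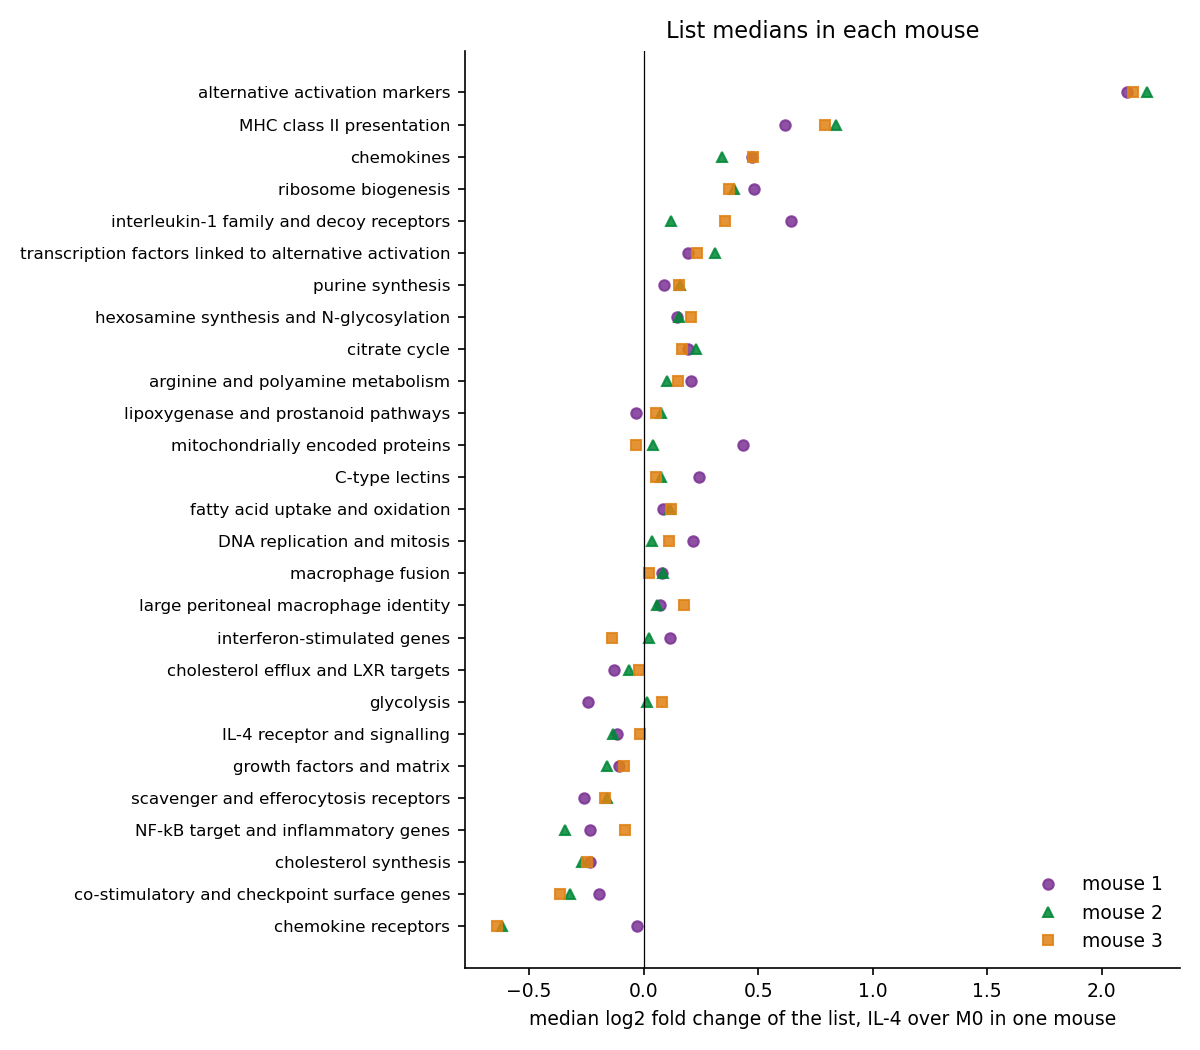
Median log2 fold change (M2-like against M0, x axis) of the tested members of each gene list (y axis) in mice 1, 2 and 3, 1 point per mouse. The points of a list lie close together for most lists, while mouse 1 lies apart for the mitochondrially encoded genes (0.43 against 0.04 and -0.03) and the chemokine receptors (-0.03 against -0.62 and -0.64).

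Chemokines moved in both directions. Of 25 tested genes 10 rose and 5 fell (median 0.52). Ccl22, a ligand of CCR4 like Ccl17, rose from 2.04, 0.876 and 0.772 CPM to 18.5, 9.84 and 8.54 CPM (log2 fold change 3.32 ± 0.21 SE, adjusted p = 1.7e-06), and the eotaxin Ccl24 (3.200 ± 0.26) and the monocyte attractant Ccl7 (3.53 ± 0.24) rose from under 0.4 CPM. Ccl2, another monocyte attractant, rose from 1.44, 2.14 and 1.25 CPM to 4.61, 3.36 and 3.77 CPM (log2 fold change 1.26 ± 0.21 SE, adjusted p = 0.0013). Ccl9, already present in M0, rose from 63.6, 58.4 and 61.8 CPM to 257, 216 and 208 CPM (log2 fold change 1.89 ± 0.11 SE, adjusted p = 9.4e-07). The M2-like samples lay above the M0 samples in each of these genes. The inflammatory chemokines Ccl3 (-1.26 ± 0.14 (adjusted p = 8.5e-05)), with the largest decrease, Ccl4 (-1.21 ± 0.15) and the scavenging ligand Cxcl16 (-1.01 ± 0.08) fell. Without mouse 2, 3 fell.

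Among 14 chemokine and chemoattractant receptors 3 rose and 6 fell (21.4% and 42.9%, against 12.9% and 14.4% of all genes, median -0.43), and 8 fell without mouse 1. Ccr3 had the largest increase, from a very low level (1.93 ± 0.36 (adjusted p = 0.0028)). Cx3cr1 fell from 1.98, 2.22 and 1.397 CPM to 0.208, 0.141 and 0.0544 CPM (log2 fold change -3.82 ± 0.26 SE, adjusted p = 2.2e-06), and the complement receptor C5ar1 from 82.7, 73.3 and 66.3 CPM to 37.9, 38.5 and 37.4 CPM (log2 fold change -0.96 ± 0.11 SE, adjusted p = 1.2e-04). Neither gene's groups overlapped. The formyl peptide receptor Fpr1 had 23 counts in M0 and 1 in M2-like samples, a ratio of 22.6 with an exact 95% interval of 3.66 to 929.

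NF-kB target and inflammatory genes fell in 15 and rose in 6 of 33 tested members (45.5% and 18.2%, against 14.4% and 12.9% of all genes, median -0.23). Nlrp3 (ENSMUSG00000032691, chr11:59541568-59566956, plus strand), the sensor of the inflammasome, fell the most, from 10.6, 9.996 and 8.46 CPM to 2.55, 2.95 and 2.79 CPM (log2 fold change -1.79 ± 0.10 SE, adjusted p = 4.9e-07). Tnf fell from 11.5, 11.2 and 12.98 CPM to 6.88, 7.32 and 8.18 CPM (log2 fold change -0.68 ± 0.09 SE, adjusted p = 3.1e-04) and the adhesion molecule Icam1 from 16.1, 13.9 and 14.2 CPM to 7.06, 6.61 and 7.36 CPM (log2 fold change -1.07 ± 0.08 SE, adjusted p = 8.3e-06). The groups were separate in each. Several inhibitors of the pathway fell as well, namely Nfkbiz (-1.19 ± 0.11), Nfkbie (-0.51 ± 0.09), Nfkbia (-0.31 ± 0.07), Tnip1 (-0.45 ± 0.07) and Tnfaip3 (-0.23 ± 0.06), as did the subunits Rela (-0.40 ± 0.08) and Relb (-0.58 ± 0.10). Il6 rose from 2 to 25 counts over the 3 samples, a ratio of 12.7 (exact 95% interval 3.18 to 111), and Tnip3 rose (1.92 ± 0.09 (adjusted p = 1.3e-07)). Without mouse 2, 3 members rose and 10 fell.

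Interferon-stimulated genes showed no common direction, with 7 higher, 4 lower and a median of 0.01 over 34 genes. These shares were 20.6% and 11.8%, against 12.9% and 14.4% of all genes. Oas2 (-1.44 ± 0.10 (adjusted p = 2.5e-06)) and Oas3 (-1.402 ± 0.11 (adjusted p = 9.8e-06)) fell the most together with Irf7 (-0.93 ± 0.08), and Gbp2 (0.59 ± 0.11 (adjusted p = 0.0021)) was among those that rose, as was Ifi44, with 3 counts in M0 and 17 in M2-like samples. Without mouse 2, 2 rose and 3 fell, with no block on mouse number 4 rose and 3 fell, and with the GC offset 7 rose and 9 fell.

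In the interleukin-1 family 6 of 13 genes rose and 2 fell (46.2% and 15.4%, against 12.9% and 14.4% of all genes, median 0.28). The IL-33 receptor Il1rl1 rose the most, from 0.8404, 0.951 and 0.809 CPM to 5.65, 3.499 and 4.098 CPM (log2 fold change 2.32 ± 0.17 SE, adjusted p = 4.6e-06), followed by Il1rl2 (1.47 ± 0.14), Il1r1 (1.11 ± 0.18) and the IL-18 binding protein gene Il18bp (0.79 ± 0.10). Il1rl1 groups did not overlap. Il1b was below 0.5 CPM in both groups and was not called (-0.07 ± 0.37 (adjusted p = 0.91)). Il1rn fell the most, together with Il18, and 1 of these was called without mouse 2 or without mouse 3.

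C-type lectin genes rose in 9 and fell in 5 of 24 tested members (37.5% and 20.8%, against 12.9% and 14.4% of all genes, median 0.15). Besides Mgl2, Clec10a and Mrc1, the increases included Clec4a3 (1.49 ± 0.13), Clec4a2 (1.02 ± 0.09), Clec4a1 (0.91 ± 0.16) and Clec4b1 (1.699 ± 0.13), which form a family of close copies and may share reads, and the receptor gene Olr1 (1.79 ± 0.13). The inhibitory receptor Clec12a had the largest decrease, from 173, 170.4 and 167 CPM to 66.3, 60.8 and 51.97 CPM (log2 fold change -1.51 ± 0.08 SE, adjusted p = 5.9e-07). Clec4d (-1.195 ± 0.06 (adjusted p = 4.6e-07)) and Clec4e (-1.01 ± 0.15 (adjusted p = 5.3e-04)), which sense mycobacterial lipids, fell as well. Clec12a values did not overlap. With no block on mouse number 3 members fell, and with the GC offset 8.

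Genes of scavenging and of the uptake of dying cells, a list of receptors and of soluble molecules such as Gas6, fell more often than they rose, 11 against 6 of 27 (median -0.19). These shares were 40.7% and 22.2%, against 14.4% and 12.9% of all genes. Olr1 rose the most, and Timd4 (1.61 ± 0.14) and the integrin gene Itgb3 (1.203 ± 0.07) rose as well. Gas6 fell the most, and Lrp1 fell from 3791, 4051 and 3664 CPM to 2039, 2617 and 2655 CPM (log2 fold change -0.66 ± 0.10 SE, adjusted p = 6.5e-04), Scarb1 (-0.69 ± 0.08), Mfge8 (-0.50 ± 0.09) and Mertk (-0.27 ± 0.06) fell too. Lrp1 groups were separate. With no block on mouse number 4 members rose.

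Genes of MHC class II presentation rose together, in 9 of 14 tested members with 1 decrease and a median of 0.74 (0.62, 0.84 and 0.79 in the 3 mice). Ciita, the master regulator of class II transcription, rose the most, from 4.94, 3.66 and 3.53 CPM to 17.7, 17.9 and 14.3 CPM (log2 fold change 2.04 ± 0.09 SE, adjusted p = 1.0e-07). H2-Aa rose from 87.8, 73.5 and 69.7 CPM to 216, 193 and 169 CPM (log2 fold change 1.32 ± 0.07 SE, adjusted p = 5.2e-07) and the invariant chain Cd74 from 273, 222 and 209 CPM to 493, 496 and 442 CPM (log2 fold change 1.03 ± 0.09 SE, adjusted p = 1.2e-05). Every M2-like value exceeded every M0 value. H2-Ab1 (1.37 ± 0.09), H2-Eb1 (1.13 ± 0.07), H2-DMa (0.81 ± 0.09) and Ifi30 (0.74 ± 0.08) followed, and March1, a ligase that removes class II from the surface, was the decrease (-0.30 ± 0.09 (adjusted p = 0.032)), which was lost without mouse 2, without mouse 3 and with no block.

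Of 19 co-stimulatory and checkpoint genes, 5 rose and 10 fell (26.3% and 52.6%, against 12.9% and 14.4% of all genes, median -0.35). Pdcd1lg2 had the largest increase, Cd274, coding for PD-L1, rose from 163, 162 and 169 CPM to 286, 257 and 260.01 CPM (log2 fold change 0.70 ± 0.07 SE, adjusted p = 2.9e-05), and Tnfsf4, coding for OX40L, rose from under 0.1 CPM (3.23 ± 0.65 (adjusted p = 0.0039)). Icosl fell the most, from 1.98, 1.697 and 1.29 CPM to 0.324, 0.194 and 0.254 CPM (log2 fold change -2.69 ± 0.29 SE, adjusted p = 7.5e-05). The groups of Cd274 and Icosl did not overlap. Cd86 (-0.47 ± 0.07), Cd80 (-0.30 ± 0.10) and the inhibitory receptor Vsir (-0.54 ± 0.09) fell. Without mouse 2, 3 rose and 6 fell.

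Growth factor and matrix genes gave 11 increases and 11 decreases of 31 (35.5% each, against 12.9% and 14.4% of all genes, median -0.14). Next to Mmp13, the elastase gene Mmp12 rose from 4441, 3798 and 3967 CPM to 9215, 7451 and 7455 CPM (log2 fold change 0.98 ± 0.09 SE, adjusted p = 1.7e-05) and Igf1 from 319.95, 321 and 326 CPM to 705, 564 and 573 CPM (log2 fold change 0.93 ± 0.19 SE, adjusted p = 0.0047). Neither gene's groups overlapped. Hbegf (2.13 ± 0.14), Timp1 (1.66 ± 0.09) and Mmp19 (1.42 ± 0.07) rose as well. Thbs1 fell the most, from 45.8, 34.9 and 28.2 CPM to 17.2, 14.8 and 12.4 CPM (log2 fold change -1.27 ± 0.11 SE, adjusted p = 1.7e-05), and Vegfa (-0.94 ± 0.09), Pdgfb (-1.08 ± 0.16), Spp1 (-0.66 ± 0.14) and Plau (-0.87 ± 0.08) fell.

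Genes that mark large peritoneal macrophages rose in 7 and fell in 3 of 20 members (median 0.06). Selp, the P-selectin gene, rose the most, from 6.54, 4.85 and 4.9998 CPM to 26.7, 23.7 and 25.8 CPM (log2 fold change 2.22 ± 0.10 SE, adjusted p = 8.7e-08), with F10 (1.298 ± 0.06) and the lineage factor Gata6, from 3.98, 2.95 and 3.38 CPM to 6.51, 5.11 and 6.82 CPM (log2 fold change 0.84 ± 0.11 SE, adjusted p = 2.2e-04). Selp and Gata6 did not overlap between groups. Cd93 fell the most (-0.68 ± 0.07 (adjusted p = 4.6e-05)).

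All 12 macrophage markers were present, and their summed level was 17841 to 19183 CPM in M0 and 13997 to 14316 CPM in M2-like samples, in which the lysozyme gene Lyz2 had the largest share and fell (-0.51 ± 0.06 (adjusted p = 2.3e-04)). Sums of other cell types were low and overlapped between the groups for B cells (16.2 to 28.4 CPM in M0, 10.3 to 27.1 in M2-like), eosinophils (17.9 to 20.1, 15.7 to 20.7), mast cells and basophils (3.53 to 5.88, 2.69 to 4.58), dendritic cells (5.66 to 10.3, 4.98 to 13.2), stromal cells (22.3 to 36.8, 18.8 to 25.1) and endothelial cells (231 to 246, 218 to 250.2, mostly Vwf). Within each mouse, however, the B cell sum fell from M0 to M2-like (28.4 to 27.1, 16.2 to 10.3 and 22.6 to 12.1 CPM). The sum of the tested stromal markers fell in each mouse as well. Of 9 B cell markers, Cd79a, Ighm, Cr2 and Blk were called lower (44.4%, against 14.4% of all genes) and none higher. Without mouse 2, 2 B cell markers were called lower, and with no block 1. Of 9 stromal markers tested, 2 were called lower and 1 higher. The sums did not overlap for NK cells (0.634 to 0.940, 0.124 to 0.440), T cells (2.14 to 2.19, 1.92 to 2.13) and neutrophils (29.7 to 36.4, 37.4 to 42.5, mostly Mmp8). Of the markers listed, Prg2 and Prg3 (eosinophils), Mcpt8 (basophils), Elane, Ly6g and Stfa2l1 (neutrophils) and Cldn5 and Emcn (endothelium) had no count in any of the 6 samples. Other members of these lists were present, such as Siglecf (mean 16.3 CPM in M0 and 16.2 in M2-like), S100a8 (6.68 and 6.14) and Kdr (11.7 and 4.87). The lists therefore do not show these cells to be absent. B cell markers and class II genes are shared by these lists in part, and the part of other cells in single genes was not tested. In such bulk samples fewer cells of a type and less RNA per cell cannot be told apart.

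The same study holds untransfected M0 and M2 macrophages in a set of libraries sequenced as paired reads, 3 libraries each, with no sample shared with the 24 h comparison. Their labels name neither a stimulus, a time nor mice, and the time and medium of these untransfected libraries are not stated one by one in the study's methods. Time, medium, sequencing and mice therefore cannot be told apart between the sets. In a joint model of 15643 genes, 2872 (18.4%) differed between M2 and M0 of the paired-read set (9.9% higher, 8.46% lower).

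Of the 2054 genes that were higher at 24 h and had a value in the paired-read set, 1235 (60.1%) had the same sign there and 394 (19.2%) were called higher, while 120 (5.84%) were called lower. Of the 2308 genes lower at 24 h, 1401 (60.7%) kept the sign, 457 (19.8%) were called lower and 262 (11.4%) higher. Over all 15310 genes with values in both, 52.0% had the same sign. Among the increases with a log2 fold change of at least 1 at 24 h, 198 of 261 (75.9%) had the same sign and 99 (37.9%) were called in the same direction, and among the decreases of at least 1, 179 of 269 (66.5%) and 84 (31.2%), while 12 (4.6%) and 26 (9.67%) were called in the opposite direction. The 851 genes called in the same direction were 19.3% of the 24 h calls and 29.6% of the calls in the paired-read set.

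The effect differed between the sets in 2679 genes (17.1%), with the 24 h effect above that of the paired-read set in 1183 (7.56%) and below it in 1496 (9.56%). Chil3 was at 9.32, 7.72 and 11.5 CPM in M0 and 987, 932 and 864 CPM in M2 libraries of the paired-read set (6.61 ± 0.19 (adjusted p = 3.2e-11)), an effect that lay below that at 24 h (difference 2.14 ± 0.23 (adjusted p = 2.1e-05)). Its copy Chil4 was at 0, 0 and 0 CPM in M0 and 0.140, 0.251 and 0.131 CPM in M2 libraries there. At 24 h the M2-like samples had 552, 459 and 551 CPM of Chil4. How reads of this pair were assigned in each set was not tested. Retnla rose there (4.78 ± 0.24 (adjusted p = 1.0e-08)) and so did Mgl2 (2.93 ± 0.27 (adjusted p = 4.2e-06)). Arg1 showed the largest difference above the effect of the paired-read set among genes called at 24 h with a mean log2 CPM of at least 2. Its levels there were 70.8, 27.9 and 13.6 CPM in M0 and 17.2, 62.3 and 9.46 CPM in M2 libraries, which overlapped, so that its log2 fold change was -0.32 ± 0.56 (adjusted p = 0.79) against 6.47 at 24 h. Irf4 (0.07 ± 0.17 (adjusted p = 0.87)) and Slc7a2 (0.40 ± 0.14 (adjusted p = 0.057)) were not called there.

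The lists differed in how far their direction was shared. Among alternative activation markers 18 of 34 rose in the paired-read set, 17 of them in both sets, and of the MHC class II genes 10 of 13 rose there, 8 in both. Of the ribosome biogenesis genes 1 rose and 4 fell there, and in 21 of 32 the effect at 24 h lay above that of the paired-read set. Cholesterol synthesis went the other way, with 18 of 24 genes higher in the paired-read set (median 0.56) and the effect at 24 h below it in 19. Among interferon-stimulated genes 19 of 33 fell in the paired-read set (median -0.63), and the effect at 24 h lay above it in 13. Leaving out replicate 2 of both sets lowered the counts of the paired-read set to 679 higher and 517 lower and those of the difference to 373 and 582, and leaving out replicate 3 to 851 and 681 and to 566 and 735.

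**Figure D5:**
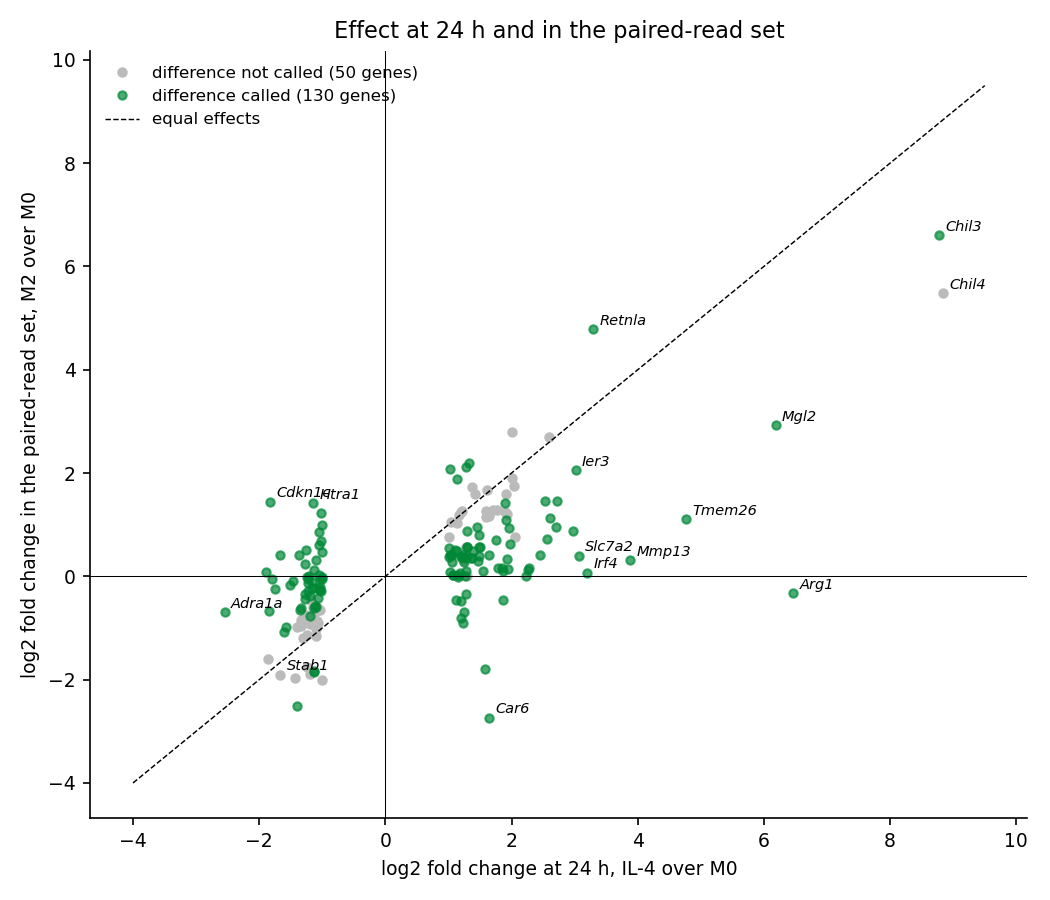
Log2 fold change of M2 against M0 in the paired-read set (y axis) against that at 24 h (x axis) for the 180 genes called at 24 h that moved by at least 1 on the log2 scale and had a mean log2 CPM of at least 2, with the 130 genes whose effects differed in color and the other 50 in grey. Chil3 lies at 8.77 and 6.61, while Arg1 lies at 6.47 and -0.32 and Cdkn1c at -1.82 and 1.45.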

How the data were processed

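RNA sequencing libraries of thioglycolate-elicited peritoneal macrophages were used as read counts per gene, which the authors had deposited as whole numbers without normalization. Per the labels and the study's methods, reads (single-end, 50 nucleotides) were trimmed with Trimmomatic, mapped to GRCm38/mm10 with TopHat2 and counted with featureCounts (versions, strand setting and handling of reads that map to several places are not given in the sources used here). The files list 39179 gene IDs, of which 37693 received a symbol and coordinates from GENCODE M21.

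The 2 technical libraries of each mouse and condition differed by little more than sampling noise (chi-square per gene 1.07 to 1.1, against 3.64 to 52.1 between mice of a condition) and were summed. Genes were filtered with filterByExpr (minimum count 10, minimum total count 15), normalized with TMM and tested by the quasi-likelihood method of edgeR (two-sided, Benjamini-Hochberg adjustment over 16110 genes, threshold 0.05), in 1 model of the 9 mouse-level samples at 24 h (M0, M1-like, M2-like) with the mouse number as a block. The standard error is the absolute log2 fold change divided by the square root of F. Pairing comes from the mouse numbers in the labels. Deviations from the condition means over 10755 genes correlated with r = 0.07, 0.39 and -0.06 for M0 and M2-like samples of the same mouse and with -0.29 to 0.17 for different mice. With the block, differences that a mouse shows in all conditions are taken out. The p-values therefore rest on how the condition effects varied among 3 mice, with that spread estimated over the 9 samples. The precision of low genes is limited by depth (39577911 to 50598499 counts), and intervals cover counting error only. The 6 untransfected M0 and M2 libraries of the paired-read set (13582919 to 16365521 counts) entered a joint model of 12 samples, in which the difference of the effects was tested as an interaction. Length-scaled levels were computed from the counts and exon lengths of the annotation.

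The members of the 27 gene lists (635 genes, 612 tested) and 10 marker lists, and the comparison itself, were chosen with earlier results of these data known. Genes named are the 10 largest increases and 10 largest decreases among genes with a symbol, no overlap of the groups and a mean log2 CPM of at least 2, list members (always the largest called increase and decrease), the siRNA targets E2f1, Myc, Pparg and Stat6, the 5 largest differences from the paired-read set in each direction (genes with a symbol, called at 24 h and for the difference, mean log2 CPM of at least 2), and the 5 genes that varied most among the mice (mean log2 CPM of at least 4). Alternatives were RLE size factors, DESeq2, a fit without the filter, a minimum of 10 counts in all samples, no block, M0 and M2-like samples only, the technical libraries as separate samples, leaving out each mouse and, chosen after seeing the data, an offset for GC content (spline with 5 degrees of freedom). The tests were tested on simulated data. Tool versions were edgeR 4.0.16, limma 3.58.1 and DESeq2 1.42.0 in R 4.3.3, with pandas 2.3.3, NumPy 2.4.6, SciPy 1.17.1 and matplotlib 3.10.9 in Python 3.11.15. Promoter sequences came from RefSeq (GRCm38.p6). A few genes are not reported here. M1-like samples served only in the filter and the model, with no value of theirs reported, and the transfected libraries were not analysed here.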

Additional observations from a re-analysis of the deposited data

Results flagged for a closer look

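Effects of IL-4 that differed between 24 h and the paired-read set, by a test of the difference itself, were found in 1183 genes above and 1496 genes below the effect of the paired-read set. Time, medium, sequencing and mice cannot be told apart between the sets, and values are given without a cause.

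Among genes called at 24 h with a mean log2 CPM of at least 2, Arg1 had the largest difference above the effect of the paired-read set (24 h minus paired-read set, log2 scale), at 6.74 ± 0.83 (adjusted p = 7.5e-05). Gm8989 differed by 5.33 ± 1.46 (adjusted p = 0.024), with 0.0717, 0.0603 and 0.2003 CPM in M0 and 0, 0 and 0 CPM in M2 libraries of the paired-read set, and Gm4707 by 3.62 ± 0.93 (adjusted p = 0.015), with 0.143, 0.362 and 0.134 CPM against 0, 0.0627 and 0 CPM. Both are unnamed gene models with few or no counts in these libraries, so that the fitted differences depend on the prior count and are neither exact values nor bounds, while at 24 h they rose by 0.50 ± 0.09 and 0.51 ± 0.09. The carbonic anhydrase gene Car6 rose from 9.02, 6.97 and 11.2 CPM to 30.6, 23.5 and 30.1 CPM at 24 h and was lower in the paired-read set (-2.73 ± 0.42 (adjusted p = 3.7e-04)), a difference of 4.36 ± 0.45 (adjusted p = 1.6e-05). Tmem26 rose in both sets, less in the paired-read set (1.11 ± 0.16 (adjusted p = 2.1e-04)), and differed by 3.65 ± 0.21 (adjusted p = 1.5e-07).

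Below the effect of the paired-read set, under the same limits, Cdkn1c fell at 24 h and rose in the paired-read set (1.45 ± 0.29 (adjusted p = 0.0026)), a difference of -3.32 ± 0.42 (adjusted p = 9.5e-05). The same change of sign was seen in Mgll, which breaks down monoglycerides (-0.68 ± 0.07 at 24 h, 2.43 ± 0.17 in the paired-read set, difference -3.12 ± 0.23 (adjusted p = 7.9e-07)), in the Fc receptor Fcgr4 (-0.86 ± 0.08, 1.88 ± 0.14, difference -2.73 ± 0.20 (adjusted p = 9.3e-07)), in the fatty acid synthase gene Fasn (-0.83 ± 0.09, 1.77 ± 0.11, difference -2.59 ± 0.16 (adjusted p = 1.9e-07)) and in the serine protease gene Htra1 (-1.14 ± 0.09, 1.42 ± 0.21, difference -2.55 ± 0.30 (adjusted p = 4.4e-05)). Fasn was at 17.3, 16.6 and 17.4 CPM in M0 and 8.31, 9.895 and 10.8 CPM in M2-like macrophages at 24 h, and at 43.2, 38.8 and 36.8 CPM and 112, 149 and 145 CPM in the paired-read set.

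Among the genes whose change varied most among the mice, 4 that are given here fell most in mouse 1. Map1s changed by -1.21, -0.40 and -0.12 in mice 1, 2 and 3, Il3ra by -1.06, -0.31 and -0.03, Lyl1 by -1.83, -1.13 and -0.88 and Xylt2 by -1.33, -0.73 and -0.42. Map1s (-0.55 ± 0.17 (adjusted p = 0.031)) and Il3ra (-0.45 ± 0.15 (adjusted p = 0.048)) lost their call in 3 and 4 of 11 alternatives, Lyl1 and Xylt2 kept it in each. The GC content and the ribosomal repeats of the M2-like sample of mouse 1 moved with these values, and their part was not tested.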

How the results depend on the processing

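Called genes kept their direction under each of the 11 alternatives in which they had a value. The counts of 2086 higher and 2324 lower genes became 3828 and 3893 with the technical libraries as separate samples, where technical spread stands in for that between mice. They ranged from 784 to 2555 and from 917 to 2592 when 1 mouse was left out (784 and 917 without mouse 2), and from 269 to 310 and from 231 to 307 for log2 fold changes of at least 1 in size. Of the list genes, 333 were called, and 213 to 370 without 1 mouse (213 without mouse 2). With no replicate block on the mouse number 2176 genes were higher and 2323 lower, and 4179 of the 4410 calls were shared. Same-mouse correlations were 0.07, 0.39 and -0.06 in mice 1, 2 and 3, so the pairing rests on the labels. RLE size factors gave 2046 and 2389, DESeq2 1834 and 2109, no filter 2312 and 2440, at least 10 counts in every sample 2003 and 2296, M0 and M2-like samples alone 1477 and 1720, and the GC offset 2603 and 2977. Under that offset, 4 of the 631 list and marker genes, which were not called, took the opposite sign and were called, namely Hk3 (0.14), Aldoa (0.12), Nfkb2 (0.15) and Trim30a (-0.16), and the cause was not tested.

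Without 1 replicate in each set the effect in the paired-read set gave 679 to 1275 higher and 517 to 964 lower genes (1548 and 1324 with all), and the difference 373 to 913 above and 582 to 1178 below (1183 and 1496 with all), lowest without replicate 2 (679, 517, 373 and 582) and low without replicate 3 (851, 681, 566 and 735). The replicate block nested in the sets gave 1345 and 1130, and 1005 and 1311 for the difference. Fold changes of genes with fewer than 10 counts in M0 depend on the prior count.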

Other observations

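Several genes outside the lists changed about as much as the known markers, and they were chosen after their values were seen. The angiopoietin-like gene Angptl2 (2.98 ± 0.10 (adjusted p = 1.4e-08)), the Fc receptor-like Fcrls (2.72 ± 0.12 (adjusted p = 8.6e-08)) and Gatm, which makes the creatine precursor from arginine (2.61 ± 0.12 (adjusted p = 1.0e-07)), rose the most after Tmem26 among these genes at a mean log2 CPM of at least 2, with Slc36a2 (2.59 ± 0.10 (adjusted p = 2.6e-08)), a transporter of small amino acids, and Rab3il1 (2.54 ± 0.09 (adjusted p = 2.1e-08)). Gatm was at 8.36, 8.86 and 8.95 CPM in M0 and at 59.4, 48.2 and 52.3 CPM in M2-like macrophages of mice 1, 2 and 3. Aldh1a2, which makes retinoic acid, rose from 4.18, 3.86 and 1.86 CPM to 19.3, 14.3 and 7.63 CPM (log2 fold change 2.05 ± 0.11 SE, adjusted p = 5.9e-07), and the transferrin receptor Tfrc from 230.2, 229 and 278 CPM to 1158, 895 and 922 CPM (log2 fold change 2.01 ± 0.12 SE, adjusted p = 1.0e-06). The groups of these genes did not overlap.

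Genes with few counts in M0 gave further large ratios. Il31ra, a receptor chain for IL-31, had 3 counts in the M0 samples and 973 in the M2-like samples, a ratio of 331 (exact 95% interval 113 to 1607). Adipoq, known as the adipocyte hormone adiponectin, had none in M0 and 98 in M2-like samples, at least 33.3-fold higher, and Map2 none and 54, at least 18.4-fold higher (against 3 counts over the M0 group). Tuba8 had 2 and 236 counts, a ratio of 120 (exact 95% interval 32.9 to 999.5). The ribonuclease genes Ear2 (4.51 ± 0.17 (adjusted p = 2.6e-08)) and Ear10 (4.03 ± 0.32 (adjusted p = 8.8e-06)) of the family of Rnase2a rose too, with the same doubt about close copies.

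Receptors for bacterial products were among the genes that fell, and they too were chosen after their values were seen (Cd14 is also a member of the macrophage marker list). The lipopolysaccharide co-receptor Cd14 fell from 60.9, 53.97 and 52.9 CPM to 20.4, 23.3 and 21.1 CPM (log2 fold change -1.36 ± 0.17 SE, adjusted p = 2.4e-04) and the lipoprotein receptor Tlr2 from 35.6, 33.1 and 32.1 CPM to 13.6, 13.6 and 12.7 CPM (log2 fold change -1.34 ± 0.09 SE, adjusted p = 1.6e-06). The groups did not overlap in either gene. Tlr5 (-2.54 ± 0.55 (adjusted p = 0.0062)) and the inhibitory lectin Cd33 (-1.34 ± 0.08 (adjusted p = 1.1e-06)) fell as well. At low levels, Cdo1, the first enzyme of cysteine breakdown, fell from 5.78, 6.396 and 6.12 CPM to 0.556, 0.777 and 0.689 CPM (log2 fold change -3.17 ± 0.13 SE, adjusted p = 7.0e-08), and the cation channel Trpm2 from 8.02, 7.25 and 6.36 CPM to 1.04, 1.18 and 1.72 CPM (log2 fold change -2.43 ± 0.17 SE, adjusted p = 4.0e-06), also without overlap.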
